A study of Mus musculus with 6 samples.

Results

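The D-type cyclins and their kinases were followed in mammary basal cells as 6 genes, Ccnd1, Ccnd2, Ccnd3, Cdk4, Cdk6 and Rb1, of 51826 gene symbols in the deposited count tables, and all 6 were found. The genes were chosen by name as a family, and the family was selected on the measured difference between GFPpos and GFPneg cells, in which Ccnd1 stands out. Their differences between these groups are therefore given as a description and support no further statement. The cells came from pubertal C57B6/N mice of the genotype SMAcreERT2/N1ICD, which joins a tamoxifen-inducible Cre recombinase driven by a smooth muscle actin promoter to an allele of the intracellular domain of Notch1, the active part of this receptor. Each pool of mice was sorted into a GFPpos and a GFPneg fraction, so that both groups carry this genotype and both had received tamoxifen, 1 dose at postnatal day 21. The labels do not say what GFP reports. The cells were isolated 72 hours later, at day 24. Each of the 3 replicates was a pool of 2 to 3 mice, which gave 3 GFPpos and 3 GFPneg RNA-seq libraries. The promoter is also active in smooth muscle and pericytes, and cells with Cre but without the Notch1 allele were not part of the comparison. The series title names a switch of cell fate under Notch activation as its question.

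Cyclins D1, D2 and D3, the products of Ccnd1, Ccnd2 and Ccnd3, bind the kinases CDK4 and CDK6 in the G1 phase of the cell cycle. The active complexes phosphorylate the retinoblastoma protein, the product of Rb1, which releases E2F transcription factors and lets a cell enter DNA replication. Cyclin D1 is known in the mouse mammary gland for its part in lobuloalveolar growth and in mammary tumours, and its gene has been described as a target of Notch signalling in other cells.

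The depth and make-up of 1 library limit what follows. GFPneg replicate 1 held 611465 gene counts and the other 5 libraries held 9912610 to 16043492. In GFPneg replicate 1, 5 abundant noncoding features took 69.2% of the gene counts, against 22.7% to 34.7% in the other libraries. Reads in no feature were 66.4% there, against 28.8% to 40.5% in the other libraries. Its TMM factor was 0.501, against 1.05 to 1.22. A single count was worth 3.28 CPM (gene counts brought to a common library total with TMM factors) in GFPneg replicate 1, and at most 0.0911 CPM elsewhere. The 8 basal markers, among them Krt5, Krt14, Trp63 and Acta2, were detected in all 6 libraries, so that the labelled cell type was visible in each. Their summed level was nevertheless lower in GFPpos cells, at 6217 to 7462 CPM, than in GFPneg cells, at 8190 to 12935 CPM.

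Among the cyclins, Ccnd1 was the gene that set the groups apart. It stood at 417, 472 and 439 CPM in GFPpos replicates 1, 2 and 3, against 72.1, 61.2 and 27.1 CPM in GFPneg replicates 1, 2 and 3. All GFPpos libraries lay far above all GFPneg libraries. The means were 443 ± 27.5 CPM in GFPpos against 53.5 ± 23.5 CPM in GFPneg cells (SD, n = 3 each), a ratio of 8.28. The position of the gene is chromosome 7, 144929931 to 144939925 (mm10, minus strand).

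The size of the Ccnd1 difference varied between pools. In replicate 1 the ratio of GFPpos to GFPneg was 5.78 (95% exact interval 3.81 to 9.23, counting error only), from 4601 counts in GFPpos and 22 counts in GFPneg cells. In replicate 2 it was 7.71 (7.24 to 8.21), and in replicate 3 it was 16.2 (14.5 to 18.3). The spread came mostly from the GFPneg side, where replicate 3 was lowest. Replicates 2 and 3 differed by more than their counting error. The ratio of replicate 1 also depends on the scaling. With library size only, Ccnd1 had 436, 538 and 535 CPM in GFPpos replicates 1, 2 and 3. In GFPneg replicates 1, 2 and 3 it then had 36.0, 74.3 and 30.0 CPM. The smallest difference was then in replicate 2 and no longer in replicate 1.

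Ccnd2, on chromosome 6 (127125162 to 127152193), ran the other way in 2 of the 3 pools. It stood at 55.1, 57.7 and 126 CPM in GFPpos replicates 1, 2 and 3, against 193, 167 and 126 CPM in GFPneg replicates 1, 2 and 3. The ratio of GFPpos to GFPneg was 0.285 (0.218 to 0.379) in replicate 1 and 0.346 (0.319 to 0.374) in replicate 2. In replicate 3 it was 0.998 (0.934 to 1.07), which is no difference beyond counting error. The groups did not overlap, but only by the small gap between 125.6 CPM in GFPpos replicate 3 and 125.8 CPM in GFPneg replicate 3. With library size as the only scaling they did overlap, at 153 CPM in GFPpos replicate 3 against 96.5 CPM in GFPneg replicate 1.

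The third cyclin gene, Ccnd3 (chromosome 17, 47505051 to 47599691), hardly separated the groups. It had 20.9, 32.8 and 24.5 CPM in GFPpos replicates 1, 2 and 3, and 13.1, 28.1 and 23.2 CPM in GFPneg replicates 1, 2 and 3. The value of GFPneg replicate 1 rests on 4 counts, and the ranges of the groups overlapped. The pseudogene Ccnd3-ps held 1 to 28 counts per library, and how reads that match both were counted is not given.

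**Figure D1:**
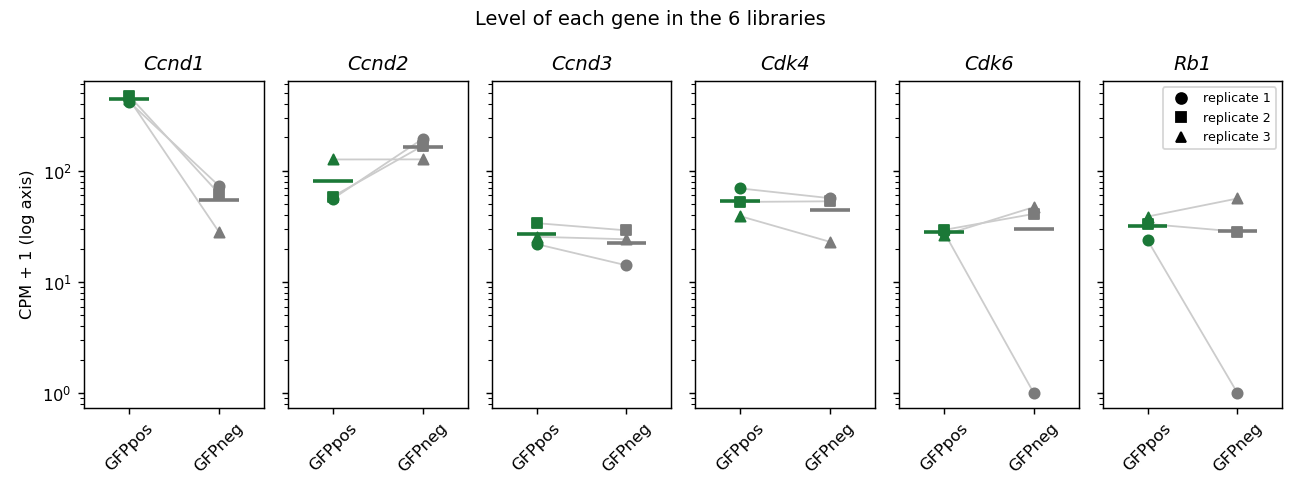
Level of the 6 genes in each library, as CPM + 1 on a log axis, with GFPpos left of GFPneg. Grey lines join the fractions of a pool, symbols give the replicate, and thick bars are the group means. Ccnd1 lies at 417 to 472 CPM in GFPpos and 27.1 to 72.1 CPM in GFPneg cells, Ccnd2 is lower in GFPpos cells of replicates 1 and 2, and Cdk6 and Rb1 have 0 counts in GFPneg replicate 1.

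Within a library the cyclins can be set against each other without any scaling between libraries. Of the summed level of the 3 cyclin genes per kilobase of exon, Ccnd1 made up 91.5%, 91.0% and 85.3% in GFPpos replicates 1, 2 and 3. In GFPneg replicates 1, 2 and 3 its share was 41.0% (28.9% to 53.4%), 38.3% (36.7% to 39.8%) and 26.4% (24.0% to 28.9%), with exact binomial intervals that cover counting error only. In value, the leading cyclin transcript was thus Ccnd1 in every GFPpos library and Ccnd2 in every GFPneg library. In GFPneg replicate 1 the lead of Ccnd2 rests on 59 counts against 22 for Ccnd1 and is not beyond counting error. The Ccnd2 share was 7.94% ± 3.69 in GFPpos and 56.2% ± 4.69 in GFPneg cells (SD, n = 3 each).

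The ratio of Ccnd1 to Ccnd2 per kilobase was 15.1, 16.3 and 6.99 in GFPpos replicates 1, 2 and 3, against 0.745, 0.732 and 0.430 in GFPneg replicates 1, 2 and 3. Ccnd3 contributed 2.81% ± 0.518 in GFPpos and 8.53% ± 4.16 in GFPneg cells, so that it was the smallest of the 3 in all libraries on the exon union lengths used here. Ccnd3 depends on that choice. Its exon union is 8.775 kb and its longest coding transcript 2.113 kb, and with the coding transcript its mean level in GFPpos cells (12.3 CPM per kb) came near that of Ccnd2 (12.6 CPM per kb).

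The summed level of the 3 cyclin genes was higher in GFPpos cells of every pool. It was 96.8, 110 and 109 CPM per kb in GFPpos replicates 1, 2 and 3, against 37.4, 34.0 and 21.8 CPM per kb in GFPneg replicates 1, 2 and 3. The GFPpos to GFPneg ratio of the sums was 2.59, 3.24 and 5.03, smaller than that of Ccnd1 alone. In replicates 1 and 2 the lower Ccnd2 level offset part of the higher Ccnd1 level in the sum. In replicate 3 Ccnd2 did not differ beyond counting error. Ccnd1 made up only 26.4% to 41.0% of the GFPneg sums, so that the sums differ less than Ccnd1 even where Ccnd2 is unchanged.

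**Figure D2:**
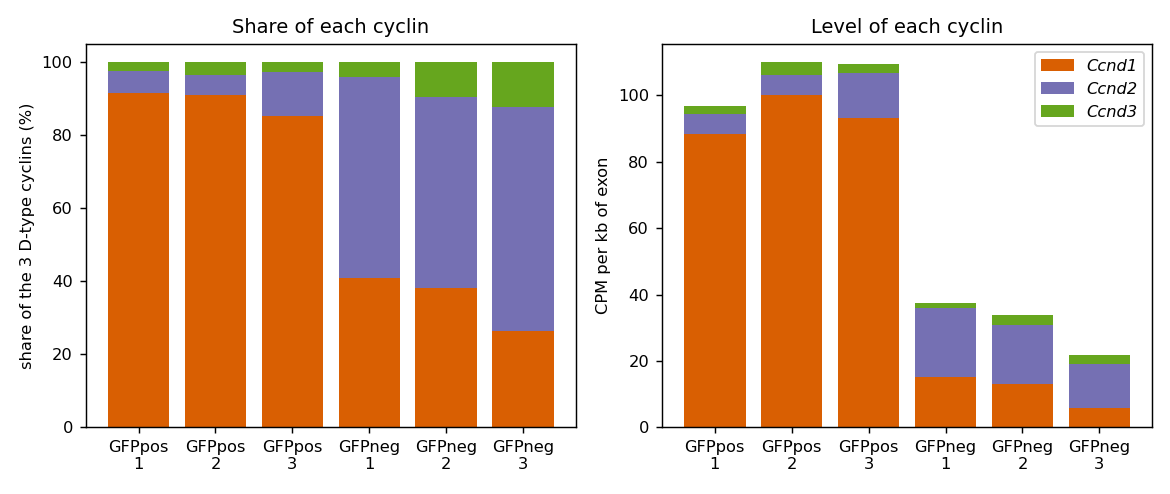
Left, the share of Ccnd1, Ccnd2 and Ccnd3 in the summed level of the 3 genes per kilobase of exon in each library. Right, the same levels stacked in CPM per kb. Ccnd1 fills 85.3% to 91.5% of the bar in GFPpos and 26.4% to 41.0% in GFPneg libraries, and the total is 96.8 to 110 CPM per kb in GFPpos and 21.8 to 37.4 CPM per kb in GFPneg libraries.

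The kinase genes did not follow Ccnd1. Cdk4 (chromosome 10, 127063534 to 127067920) had 68.5, 51.5 and 38.1 CPM in GFPpos replicates 1, 2 and 3, against 55.7, 52.2 and 21.96 CPM in GFPneg replicates 1, 2 and 3. The ranges of the groups overlapped, and replicate 3 was the lowest of each group. Cdk4 thus varied between pools within each fraction as well as between fractions.

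Cdk6 (chromosome 5, 3341485 to 3531008), the other kinase gene, had 27.2, 28.4 and 25.4 CPM in GFPpos replicates 1, 2 and 3, and 0, 40.0 and 46.2 CPM in GFPneg replicates 1, 2 and 3. The 0 in GFPneg replicate 1 allows up to 9.84 CPM (3 counts), below the other 5 libraries. In the deeper pools the ratio of GFPpos to GFPneg was 0.710 (0.625 to 0.805) in replicate 2 and 0.551 (0.485 to 0.625) in replicate 3. The group means were 27.0 ± 1.49 CPM in GFPpos against 28.7 ± 25.1 CPM in GFPneg cells.

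The Cdk4 and Cdk6 promoters are printed here because the products of these genes share the same cyclins. In replicate 3 the ratio of GFPpos to GFPneg was 1.74 for Cdk4 and 0.551 for Cdk6. In replicate 2 both ratios were below 1, at 0.987 for Cdk4 and 0.710 for Cdk6. Neither gene passed the threshold in the fit over all genes. A link between these sequences and the RNA levels was not tested. The RefSeq promoter table (GRCm38.p6, the assembly of mm10) had an entry for 3 of the 6 genes, Ccnd3, Cdk4 and Cdk6. Capitals mark CACGTG, the canonical E-box bound by MYC and related factors, which reads the same on both strands. Each line gives the 250 bases before the start annotated in RefSeq, 5′ to 3′ on the plus strand. For Cdk6 this window lies inside the span of the gene given above, which came from GENCODE and starts at 3341485.
Cdk4, chr10:127063285-127063534: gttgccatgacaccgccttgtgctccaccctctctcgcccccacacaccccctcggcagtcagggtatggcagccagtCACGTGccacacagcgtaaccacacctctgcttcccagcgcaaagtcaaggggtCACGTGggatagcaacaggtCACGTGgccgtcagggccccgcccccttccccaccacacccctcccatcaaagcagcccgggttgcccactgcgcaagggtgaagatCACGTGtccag
Cdk6, chr5:3343643-3343892: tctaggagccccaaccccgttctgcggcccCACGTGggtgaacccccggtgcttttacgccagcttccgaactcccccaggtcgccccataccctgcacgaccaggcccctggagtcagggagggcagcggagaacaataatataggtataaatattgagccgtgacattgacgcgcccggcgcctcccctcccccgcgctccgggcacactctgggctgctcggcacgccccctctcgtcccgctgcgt

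The Cdk4 window held 4 E-boxes and the Cdk6 window held 1, and both Ccnd3 windows held 0. Of 32851 windows of the same length in that table, 6.02% held at least 1 E-box and 0.0213% held at least 4. These matches are letters in a window and were not tested as binding sites. Myc itself had 410, 283 and 400 CPM in GFPpos replicates 1, 2 and 3, against 167, 335 and 545 CPM in GFPneg replicates 1, 2 and 3, and the groups overlapped.

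Rb1 (chromosome 14, 73183673 to 73325822), whose product is the substrate of the complexes, had 22.7, 32.3 and 37.8 CPM in GFPpos replicates 1, 2 and 3, and 0, 27.4 and 55.4 CPM in GFPneg replicates 1, 2 and 3. The 0 of GFPneg replicate 1 carries the same limit of 9.84 CPM. In replicate 2 the ratio of GFPpos to GFPneg was 1.18 (1.04 to 1.34) and in replicate 3 it was 0.682 (0.612 to 0.761). The deeper pools thus pointed in opposite directions.

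Cyclin and kinase transcripts were also set against each other within libraries. The summed level of the 3 cyclin genes over that of Cdk4 and Cdk6, per kilobase, was 4.20, 6.15 and 8.08 in GFPpos replicates 1, 2 and 3. It was 2.18, 1.79 and 2.16 in GFPneg replicates 1, 2 and 3. The lowest GFPpos library lay above the highest GFPneg library. Cdk4 made up 86.6% to 91.6% of the 2 kinase genes in GFPpos libraries and 67.2% to 100% in GFPneg libraries, where the 100% belongs to the library without a Cdk6 count.

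The order of the levels differed between the fractions. Per kilobase of exon, Ccnd1 led in GFPpos cells with a mean of 94.0 CPM per kb, far above Cdk4 with 16.2 and Ccnd2 with 8.45 CPM per kb, and the last of these were within the range of each other. Rb1 (5.14), Ccnd3 (2.97) and Cdk6 (1.93 CPM per kb) followed. The ranges of Ccnd2 and Rb1 also overlapped, while those of Rb1 and Ccnd3 and of Ccnd3 and Cdk6 did not. On the longest coding transcript the order of Rb1 and Ccnd3 turned round, with 6.65 CPM per kb for Rb1 and 12.3 CPM per kb for Ccnd3 in GFPpos cells, again without overlap. In GFPneg cells Ccnd2 led with 17.2 CPM per kb, before Cdk4 with 13.3 and Ccnd1 with 11.4 CPM per kb. No neighbours in the GFPneg order were separated by more than their range over libraries.

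In the fit over all genes the log2 fold change of GFPpos over GFPneg was 3.09 (SE 0.46) for Ccnd1 and -1.02 (SE 0.46) for Ccnd2. It was 0.22 (SE 0.66) for Ccnd3, 0.31 (SE 0.57) for Cdk4, -0.20 (SE 0.81) for Cdk6 and 0.05 (SE 0.81) for Rb1. All 6 genes passed the filter on low counts. Of the 6, 1 gene (Ccnd1) passed an adjusted p of 0.05 in edgeR's quasi-likelihood test, against 0.0649% of the 13873 genes tested. With the replicate number as a block it was again 1 of 6, against 0.440%, and without GFPneg replicate 1 it was 1 of 6, against 0.602%. Groups that did not overlap in CPM were seen for 2 of the 6 genes (Ccnd1 and Ccnd2), against 13.2% of all genes tested. Because the family was chosen on this contrast, nothing is read from these counts.

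The Ccnd1 call rested on some of the libraries more than on others. In edgeR's test it was lost without GFPneg replicate 2 (adjusted p = 0.0816) and without GFPpos replicate 3 (adjusted p = 0.0577). Its log2 fold change stayed between 2.75 and 3.34 in the 6 fits that left out a library. Ccnd2 had a negative log2 fold change in these 6 fits, between -1.51 and -0.79, and did not pass in any of them. Without GFPneg replicate 1 the values were -0.87 for Ccnd2, -0.65 for Cdk6 and -0.40 for Rb1, so that Rb1 changed sign.

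**Figure D3:**
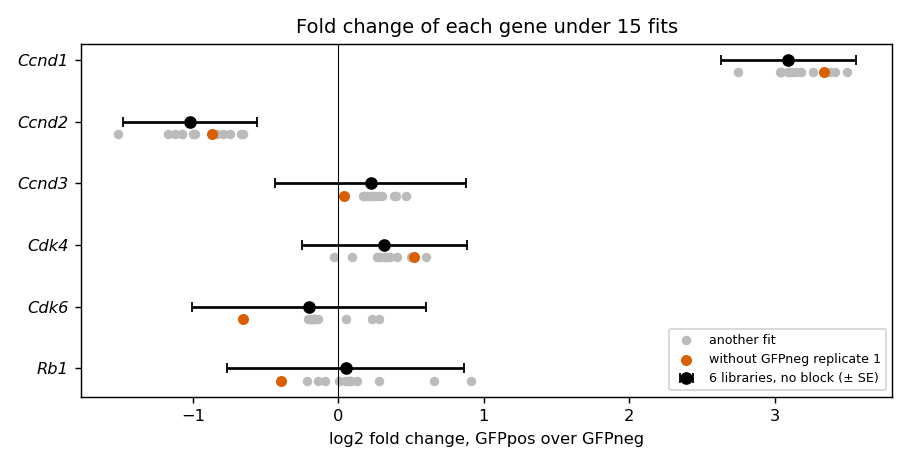
Log2 fold change of GFPpos over GFPneg for the 6 genes. Black points with bars are the fit to 6 libraries without a block (± SE), orange points the fit without GFPneg replicate 1, and grey points the other 13 fits. Ccnd1 lies between 2.75 and 3.50 and Ccnd2 between -1.51 and -0.66 in all 15 fits, while Cdk4, Cdk6 and Rb1 lie on both sides of 0.

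Other genes of the pathway were taken from 6 lists of 82 genes, of which 78 passed the filter on low counts. In edgeR's test over all genes, 0 of the 78 passed an adjusted p of 0.05, and 8 had an unadjusted p below 0.05, against 730 of the 13873 genes tested. Positive log2 fold changes were seen for 60 of the 78 and negative ones for 18, with a median of 0.44. Over all genes tested 57.5% were positive and the median was 0.15. With DESeq2 or with the replicate block, 0 of the 78 passed as well.

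Targets of E2F, which act downstream of Rb1, were mostly higher in GFPpos cells in value. Of 24 tested, 22 had positive log2 fold changes, with a median of 1.11, or 0.99 without GFPneg replicate 1. The maintenance DNA methyltransferase gene Dnmt1 had 230, 252 and 244 CPM in GFPpos replicates 1, 2 and 3, against 111, 139 and 65.9 CPM in GFPneg replicates 1, 2 and 3 (log2 1.20, SE 0.42). The helicase subunit genes Mcm3 (95.9 ± 9.16 CPM in GFPpos against 34.8 ± 20.98 CPM in GFPneg cells) and Mcm6 (118 ± 3.28 CPM in GFPpos against 40.8 ± 30.9 CPM in GFPneg cells) had log2 values of 1.38 (SE 0.53) and 1.43 (SE 0.57). These 3 genes were higher in GFPpos cells of all 3 pools and did not pass the threshold (edgeR, adjusted p = 0.678 for Dnmt1, the lowest of the list).

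Of 10 cyclin and kinase genes of the later cell cycle phases tested, 7 were positive, with a median log2 value of 1.00, or 0.84 without GFPneg replicate 1. Ccna2, which encodes cyclin A2, had 83.4, 91.8 and 46.5 CPM in GFPpos replicates 1, 2 and 3, against 0, 30.4 and 6.29 CPM in GFPneg replicates 1, 2 and 3. Cdk1, the mitotic kinase gene, had 68.4, 37.9 and 35.9 CPM in GFPpos replicates 1, 2 and 3, against 0, 18.3 and 0.364 CPM in GFPneg replicates 1, 2 and 3. Ccnb2, which encodes cyclin B2, averaged 26.7 ± 9.87 CPM in GFPpos against 5.56 ± 9.24 CPM in GFPneg cells. All 3 genes have 0 counts in GFPneg replicate 1, where values up to 9.84 CPM could have been missed. Ccne1, a G1 cyclin gene that acts next after the D-type cyclins, had a log2 fold change of -0.08 (SE 0.90). Its partner kinase gene Cdk2 had one of -0.04 (SE 0.63). Ccne2, the other cyclin E gene, had one of 1.26 (SE 1.17) and was higher in GFPpos cells of all 3 pools. Ccne1 and Ccne2 also have 0 counts in GFPneg replicate 1. Ccne1, Ccne2 and Cdk2 were chosen after their values were seen.

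Of 12 genes of the Rb relatives and E2F factors, 10 were positive, with a median log2 value of 0.59. The repressor gene E2f7 averaged 32.8 ± 6.70 CPM in GFPpos against 6.86 ± 5.67 CPM in GFPneg cells (log2 2.11, SE 0.78). Rbl1, which encodes the Rb relative p107, averaged 42.2 ± 15.1 CPM in GFPpos against 8.995 ± 10.7 CPM in GFPneg cells (log2 1.99, SE 0.82). E2f2 was low throughout, at 3.64 ± 1.44 CPM in GFPpos against 0.411 ± 0.711 CPM in GFPneg cells. These 3 genes were higher in GFPpos cells of all 3 pools without passing the threshold. Rbl1 and E2f2 have 0 counts in GFPneg replicate 1.

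The inhibitors of the cyclin-dependent kinases did not share a direction. Of 7 inhibitor genes, 5 were tested and 4 of these were positive, with a median log2 value of 1.04, or 0.62 without GFPneg replicate 1. Cdkn1b, which encodes p27, averaged 48.0 ± 9.63 CPM in GFPpos against 21.1 ± 20.8 CPM in GFPneg cells, and Cdkn2d, which encodes the CDK4 and CDK6 inhibitor p19, 12.1 ± 6.61 CPM in GFPpos against 4.15 ± 5.97 CPM in GFPneg cells. Both have 0 counts in GFPneg replicate 1, and in replicate 2 Cdkn1b was lower in GFPpos cells, at 37.7 CPM against 41.7 CPM in GFPneg cells. Cdkn1c, which encodes p57, had 17.2, 6.38 and 5.50 CPM in GFPpos replicates 1, 2 and 3, against 19.7, 20.9 and 25.1 CPM in GFPneg replicates 1, 2 and 3. It was thus lower in GFPpos cells of each pool (log2 -1.19, SE 0.79). Cdkn2a, which encodes the inhibitor p16, had counts in 1 library only, with 8 counts in GFPpos replicate 3.

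Of 12 tested genes that assemble, activate or degrade cyclin D complexes, 9 were positive, with a median log2 value of 0.26. The chaperone gene Cdc37, whose product hands CDK4 to HSP90, averaged 245 ± 12.6 CPM in GFPpos against 154 ± 77.1 CPM in GFPneg cells, and the HSP90 gene Hsp90ab1 2700 ± 459 CPM in GFPpos against 2075 ± 530 CPM in GFPneg cells. The F-box gene Fbxo4, which has been tied to cyclin D1 degradation, averaged 8.61 ± 9.96 CPM in GFPpos against 2.80 ± 2.70 CPM in GFPneg cells, with 0 counts in both libraries of replicate 1.

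Transcription factors described at the Ccnd1 promoter had a median log2 value of 0.00, with 8 of 15 positive. Rbpj, which encodes the DNA-binding partner of the Notch intracellular domain, had 2.36, 20.8 and 16.4 CPM in GFPpos replicates 1, 2 and 3, against 72.1, 25.2 and 50.2 CPM in GFPneg replicates 1, 2 and 3. It was lower in GFPpos cells of each pool (log2 -1.86, SE 0.79) and did not pass the threshold (edgeR, adjusted p = 0.850). The NF-kappaB subunit gene Rela averaged 152 ± 21.5 CPM in GFPpos against 88.1 ± 57.2 CPM in GFPneg cells, and the estrogen receptor gene Esr1 13.9 ± 2.20 CPM in GFPpos against 4.06 ± 6.49 CPM in GFPneg cells. Esr1 has 0 counts in GFPneg replicate 1.

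**Figure D4:**
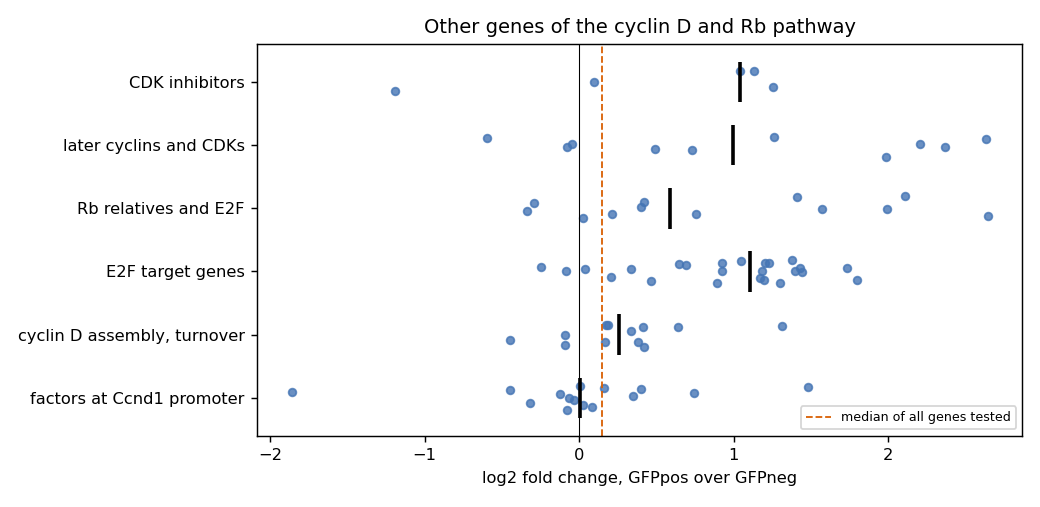
Log2 fold change of GFPpos over GFPneg for the 78 tested genes of the 6 pathway lists. Each point is 1 gene (with vertical scatter for legibility), black bars are list medians, and the dashed line is the median of all genes tested (0.15). The medians run between 0.00 for factors described at the Ccnd1 promoter and 1.11 for E2F target genes.

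Markers of other cell types were read beside these values, since in sorted bulk samples fewer cells of a type and less RNA per cell cannot be told apart. The summed level of 8 endothelial markers was 913, 789 and 2265 CPM in GFPpos replicates 1, 2 and 3, and 1777, 890 and 530 CPM in GFPneg replicates 1, 2 and 3. That of 7 pericyte markers was 239, 173 and 649 CPM in GFPpos replicates 1, 2 and 3, against 42.6, 84.9 and 144 CPM in GFPneg replicates 1, 2 and 3. A large part of the pericyte sum was the Notch receptor gene Notch3. Notch3 had 155, 101 and 279 CPM in GFPpos replicates 1, 2 and 3, against 42.6, 21.7 and 61.5 CPM in GFPneg replicates 1, 2 and 3. It was the only pericyte marker with counts in GFPneg replicate 1. GFPpos replicate 3, the GFPpos library with the most Ccnd2, was thus also the highest in both lists. Among the GFPpos libraries, replicate 3 was the highest for fibroblast, immune and adipocyte markers as well. For basal, luminal, Schwann cell and epidermal markers it was the lowest. The part of these markers in the Ccnd2 value was not tested.

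Of the other marker lists, the luminal one had a higher sum in GFPpos libraries, and the fibroblast and epidermal ones had lower sums. The summed level of 9 luminal markers was 629 to 930 CPM in GFPpos and 239 to 534 CPM in GFPneg libraries. GFPneg replicate 1 had counts for 4 of the 9. Kit had 61.7, 92.1 and 145 CPM in GFPpos replicates 1, 2 and 3, against 16.4, 4.52 and 11.0 CPM in GFPneg replicates 1, 2 and 3. The gap between the luminal sums was smaller than the Kit level of GFPpos replicate 3. Foxa1 and Elf5 had negative log2 values (-0.72 and -0.02), and the other luminal markers had positive ones. Fibroblast markers (7 genes) summed to 39.7 to 100 CPM in GFPpos and 146 to 387 CPM in GFPneg libraries, and epidermal markers (5 genes) to 1.56 to 8.79 CPM in GFPpos and 31.2 to 177 CPM in GFPneg libraries. Schwann cell markers (6 genes, 106 to 188 CPM in GFPpos and 183 to 875 CPM in GFPneg libraries) and adipocyte markers (5 genes, 36.0 to 143 CPM in GFPpos and 83.5 to 146 CPM in GFPneg libraries) overlapped. Immune markers (7 genes) stayed at 5.62 to 20.6 CPM in GFPpos and 7.65 to 10.8 CPM in GFPneg libraries, with Adgre1 and Csf1r at 0 in all 6, as was the fibroblast gene Lum. Their part in the cyclin differences was not tested. The proliferation marker Mki67 stood at 1015, 969 and 554 CPM in GFPpos replicates 1, 2 and 3, against 102, 403 and 113 CPM in GFPneg replicates 1, 2 and 3, and its part was not tested either.

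The genes with a profile most like that of a cyclin gene were ranked by the root mean square difference of log2(CPM + 1) over the 6 libraries, each gene centred on its own mean. Among 10111 genes with a mean of at least 5 CPM in the higher group (unnamed gene models and mitochondrial genes left out), those nearest to Ccnd1 were Ptgds (0.497), Marveld3 (0.497), Serpinb9 (0.520), Mamdc2 (0.525) and Rnf125 (0.567). Serpinb9, a granzyme B inhibitor gene, had 218, 159 and 315 CPM in GFPpos replicates 1, 2 and 3, against 39.3, 22.4 and 26.4 CPM in GFPneg replicates 1, 2 and 3. Ptgds, a prostaglandin D synthase gene, had 8.01 to 12.0 CPM in GFPpos libraries and 0 counts in the GFPneg libraries. The 0 in GFPneg replicate 1 allows up to 9.84 CPM, which lies within the GFPpos range. With a pseudocount of 0.5 Ptgds was no longer among the 5 nearest genes.

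Nearest to Ccnd2 were Gpr4 (0.240), Fat4 (0.242), Klf2 (0.244), Man1c1 (0.256) and Ehbp1l1 (0.264). Fat4, which encodes a large cadherin, had 66.9, 60.4 and 122 CPM in GFPpos replicates 1, 2 and 3, against 187, 141 and 178 CPM in GFPneg replicates 1, 2 and 3. The distances to Ccnd2 were smaller than those to Ccnd1. Without GFPneg replicate 1, 1 of the 5 genes was shared with the ranking for Ccnd1 (Ptgds) and 1 of 5 with that for Ccnd2 (Gpr4), so that these neighbours depend on that library.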

How the data were processed

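RNA of sorted cells was sequenced in 6 libraries. The files the authors deposited hold raw counts for each gene symbol. The submitters' processing notes name FastQC, cutadapt, TopHat2 and HTSeq with build mm10. Their versions, the counting mode and the strandedness were not given in the sources used here. Exons of all 6 genes overlap genes on the opposite strand (361 to 1100 shared bases), whose reads are uncertain. Those at Ccnd2 and Cdk6 held at most 3 counts in all.

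Positions and lengths came from GENCODE M21. Reads in no feature (28.8% to 66.4%) and ambiguous reads (0.390% to 2.07%) were left out. The test was edgeR's quasi-likelihood test (version 4.0.16, R 4.3.3; TMM, filterByExpr, group as the only term, Benjamini-Hochberg threshold 0.05). The scripts were tested on simulated data. Effective library sizes gave CPM.

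The design states that both fractions came from the same pool, so that replicate numbers pair the samples. The fractions' deviations from their group mean had correlations of -0.016 in replicate 1, 0.095 in replicate 2 and 0.011 in replicate 3. P-values of the main fit measure the spread between libraries within a fraction, counting error included. They do not use the pairing, which only the fits with the replicate block do. Other settings were another scaling, no filter, leaving out the 5 abundant noncoding features, DESeq2 1.42.0, the replicate block, and fits without libraries. Genes named are the 6 members, of each list those past the threshold or the 3 with the smallest p, and the 5 nearest profiles. Members and lists were chosen with earlier results of these data known.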

Additional observations from a re-analysis of the deposited data

How the results depend on the processing

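Ccnd1 kept a positive and Ccnd2 a negative log2 fold change in all 14 other fits. Of the 6 genes, 0 passed with library size only (Ccnd1, adjusted p = 0.0504), and 0 to 1 without a single library. Changes of sign, none past the threshold, were seen for Cdk4 without GFPneg replicate 3 (-0.028; -0.028 to 0.52 over the fits without a single library), for Cdk6 with the replicate block (0.28) and without GFPneg replicate 2 (0.06) or 3 (0.23; the lowest value was -0.66 without both libraries of replicate 1), and for Rb1 without GFPneg replicate 1 (-0.40), GFPpos replicate 3 (-0.09), both libraries of replicate 1 (-0.21), and with the replicate block without them (-0.14), with the highest value, 0.91, without GFPneg replicate 3. The cause was not tested.

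Over all genes 9 passed, against 301 with no low count filter, 98 with DESeq2, 61 with the replicate block, 51 without both libraries of replicate 1, 602 with the block but without them, and 3 to 92 without a single library. The block changed no call of the 6 genes. Without the 5 abundant noncoding features 9 genes passed again, and Ccnd1 had a log2 fold change of 3.12. Of the pathway genes 1 (Ccna2) passed with no filter and 11 with the block without replicate 1, a fit of 2 pairs with few residual degrees of freedom, and 0 without a single library. Library size only moved the median log2 fold change of all genes to 0.31, against 0.15.

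The Ccnd1 share was 89.3% in GFPpos and 35.2% in GFPneg cells, against 81.0% in GFPpos and 21.7% in GFPneg cells on counts, and 82.7% in GFPpos and 27.5% in GFPneg cells on the longest coding transcript (added after the data were seen), and 88.1% to 91.3% in GFPpos and 32.3% to 39.6% in GFPneg cells without a single library. With a pseudocount of 0.5, 4 of 5 nearest genes were shared for each cyclin.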
